A study of Mus musculus with 6 samples.

Results

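Hepatic transcripts of fatty acid oxidation were compared between miR-137 deficient (Mir137-/-) and wild-type (Mir137+/+) mice on postnatal day 14. Each genotype had 3 arrays, labelled as biological replicates. The members were chosen by their known role, with earlier results of these data known. They were 31 genes of mitochondrial and peroxisomal fatty acid oxidation, ketone body formation and coenzyme A supply. Of these, 30 had a probe set annotated to that symbol alone, among 18193 genes measured. Acsl1, an acyl-CoA synthetase, had none in the annotation used and was not analysed here. Each gene was read from its brightest probe set by the average of the 6 arrays, without regard to genotype. The Mir137-/- mice lacked miR-137 in the whole body, because the exons that encode it had been removed with Cre recombinase in embryonic stem cells. The Mir137+/+ mice carried intact alleles, and both genotypes were kept in standard housing with no treatment. Loss of miR-137 in liver and loss in other organs cannot be told apart in this comparison.

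The mature miRNA that the knockout removes is shown because it defines the comparison, with its seed (bases 2 to 8) in capitals. RefSeq places it on the plus strand of chr3:118433901-118433923 (GRCm38.p6).
mmu-miR-137-3p: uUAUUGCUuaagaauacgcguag

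Liver burns fatty acids by beta-oxidation. Long-chain fatty acids are bound to coenzyme A, pass into mitochondria as carnitine esters, and are then shortened in rounds of dehydrogenation, hydration, a further dehydrogenation and thiolysis, with electrons handed to the respiratory chain by electron transfer flavoprotein. Peroxisomes shorten very long and dicarboxylic chains with their own enzymes and pass the products on, and hepatocyte mitochondria turn acetyl-CoA into ketone bodies for other organs. In mice many of these genes are induced in fasting and in suckling, when milk fat is the main fuel, by the nuclear receptor PPARA.

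The arrays carried the profile of liver. Albumin (Alb) lay between 13.71 and 13.74 on Mir137-/- arrays and between 13.73 and 13.79 on Mir137+/+ arrays (log2). Of 9 measured hepatocyte markers, 0 were called. At an unadjusted p below 0.05, 1 was higher and 2 were lower (limma), beside 12.2% and 14.6% of all genes. The deleted miR-137 had no probe set in the annotation, so the knockout itself could not be checked here. Pairs of arrays within Mir137-/- correlated at 0.990 to 0.991, within Mir137+/+ at 0.993 to 0.994 and across genotypes at 0.982 to 0.988 (Pearson's r over probe sets, which cannot serve as replicates of one another). Transcripts of other tissues stood apart on some arrays. The summed linear level of 16 of 16 skeletal muscle markers was 6898 on Mir137-/- replicate 1, against 341 to 394 on the other Mir137-/- arrays and 290 to 318 on the Mir137+/+ arrays, and Acta1 was at 11.38 there. For 14 of 16 exocrine pancreas markers the sum was 6440 on Mir137-/- replicate 2 and 2812 on Mir137+/+ replicate 2, against 830 to 862 on the other arrays. The sum of 6 of 8 adipocyte markers was 80 to 275 in Mir137-/- and 79 to 106 in Mir137+/+, and that of 7 of 9 blood cell markers was 1098 to 1458 in Mir137-/- and 2381 to 2910 in Mir137+/+. These sums have no true zero on this scale, so no marker can be called absent. Mir137+/+ replicates 2 and 3 had Xist at 10.91 and 10.81, against 3.66 to 4.24 for the remaining 4 arrays, with the Y-linked Eif2s3y the other way round, although the methods name male mice. In bulk tissue, fewer cells of a type and less RNA per cell cannot be told apart. The members were fitted again without the arrays concerned and with Xist as a term. All Mir137-/- arrays and Mir137+/+ replicate 1 were low in Xist. In the fit with Xist, the genotype difference therefore rests on Mir137+/+ replicate 1 alone, so it cannot separate sex from genotype with replication. The part of these transcripts in the differences was not tested otherwise.

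Vnn1 and Crat rose in Mir137-/- liver by 2.37-fold and 1.87-fold, and the peroxisomal membrane gene Pex11a fell to a fold of 0.585. Ehhadh, a peroxisomal enzyme, rose by 1.51-fold, next to the threshold. Of the 16 members placed in mitochondria, Acadl, Hadha and Hadhb were higher at the adjusted p, by 1.25-fold to 1.46-fold, and the other 13 did not pass. With 1 array left out, Hadhb passed in 6 of 6 fits, Acadl in 1 and Hadha in 0. A call needed an adjusted p below 0.05 (limma, Benjamini-Hochberg over all 18193 genes) and a fold change above 1.5. By this rule 3 of 30 members rose (Vnn1, Crat and Ehhadh) and 1 fell (Pex11a), beside 2.34% of all genes that were called higher and 3.34% that were called lower (5.67% either way). At the adjusted p alone, with any fold change, 8 members were higher and 1 was lower, beside 5.06% and 6.9% of all genes. The 8 were Vnn1, Crat, Ehhadh, Hadhb, Acsl5, Acadl, Bdh1 and Hadha. This count was 4 to 6 when any 1 array was left out and 12 with a trended, robust variance. It was 2 (Vnn1 and Crat) without replicate 2 of both genotypes, the arrays with pancreas transcripts. Pex11a passed in each of these fits.

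The whole set leaned upward by a small amount. Of the 30 measured members, 22 had a positive difference, with a median of 0.12 on the log2 scale, beside 51% of all genes with a positive difference and a median of 0 over all genes. The groups did not overlap, with Mir137-/- higher, in 18 members, beside 14.9% of all genes, and in 4 with Mir137-/- lower, beside 17.4% of all genes. By array, the median deviation of the 30 members from the Mir137+/+ mean was 0.12, 0.17 and 0.13 in Mir137-/- and 0.01, -0.01 and -0.01 in Mir137+/+. At an unadjusted p below 0.05, 12 members were higher and 2 were lower (limma), beside 12.2% and 14.6% of all genes. Because the members were chosen with earlier results of these data known, these counts only describe them.

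**Figure D1:**
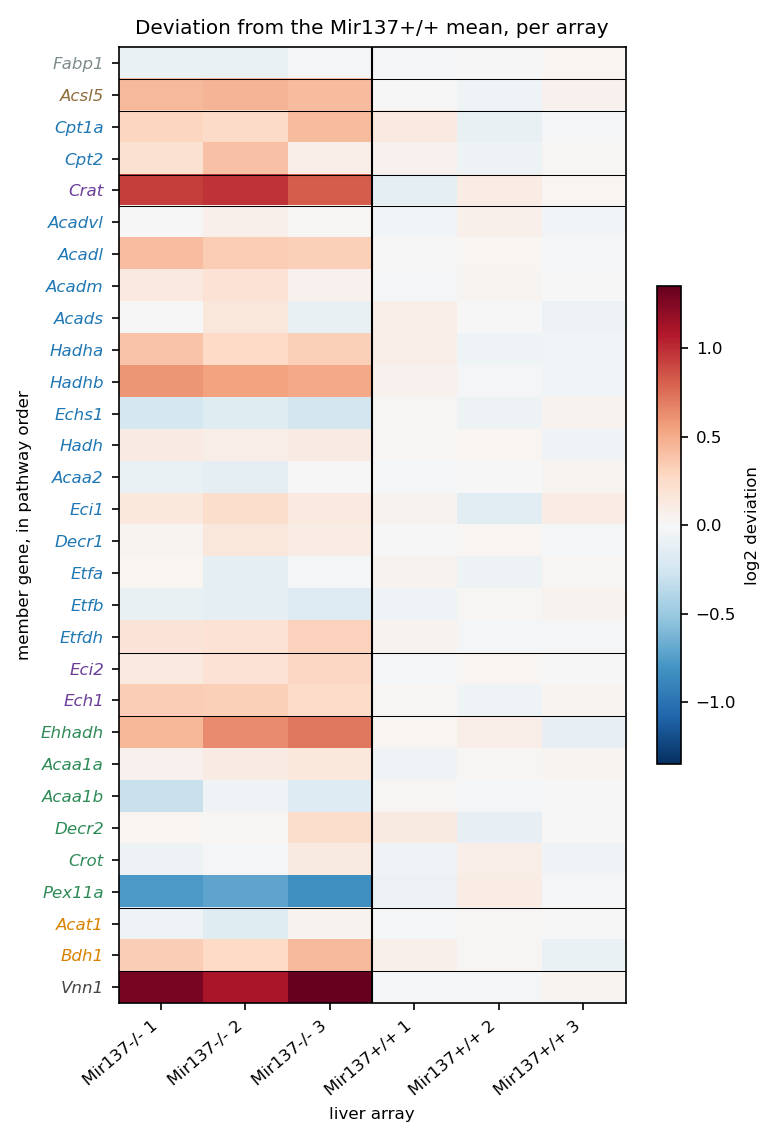
Colour gives the log2 deviation of each of the 30 measured members from its Mir137+/+ mean on each of the 6 liver arrays, with genes in pathway order and gene names coloured by compartment. Vnn1 and Crat are red and Pex11a is blue on all 3 Mir137-/- arrays, and most other rows are pale.

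Before fatty acids reach the mitochondrion they are bound and activated. Fabp1, the abundant fatty acid carrier of hepatocyte cytosol, lay at 12.93 to 13 in Mir137-/- and 13 to 13.04 in Mir137+/+, a difference of -0.06 with a 95% interval of -0.24 to 0.12 (adjusted p = 0.666, limma). Its second probe set was at -0.03. Acsl5, which joins long-chain fatty acids to coenzyme A, was at 11.21, 11.24 and 11.20 in Mir137-/- and at 10.78, 10.72 and 10.83 in Mir137+/+. The Acsl5 groups were well apart, and the difference was 0.44 (SE 0.08, adjusted p = 0.0123, limma), or 1.36-fold, under the 1.5-fold threshold. It missed the adjusted p without Mir137+/+ replicate 2 (adjusted p = 0.0542, limma).

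The Fabp1 window is shown because it alone, among the members searched, held a match to AGGNCANAGGNCA. This is the direct repeat with 1 spacer base that PPARA and RXR bind. Of the 31 named members, 26 had a RefSeq promoter window (250 bases before to 50 after the start site, both strands searched). Crat, Vnn1, Acaa2, Decr1 and Acat1 had no window and were not searched. The direct repeat was in 1 of the 26, or 3.85%, beside 0.451% of 27025 genes. The single half-site AGGTCA was in 5 of the 26, or 19.2%, beside 18.1% of all genes. They were Fabp1, Cpt1a, Acadvl, Acadm and Echs1, and in Fabp1 1 of its 2 half-sites lies inside the repeat. The strict repeat AGGTCANAGGTCA was in 0 of the 26 members and 13 of the 27025 genes. A match is a description of letters only. The Fabp1 match, in capitals, reads on the minus strand and starts at position -67 from the start site, within chr6:71199789-71199848 (GRCm38.p6, plus strand shown).
Fabp1: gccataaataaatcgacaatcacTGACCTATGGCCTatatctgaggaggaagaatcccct

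Long-chain acyl groups cross the mitochondrial membranes bound to carnitine. Cpt1a, the rate-controlling carnitine palmitoyltransferase of the outer mitochondrial membrane, lay at 11.53 to 11.70 in Mir137-/- and 11.17 to 11.40 in Mir137+/+, a difference of 0.33 that missed the threshold (adjusted p = 0.0696, limma). It passed at the adjusted p, under 1.5-fold, without the dimmest 40% of genes (adjusted p = 0.0435) and with a trended, robust variance (adjusted p = 0.00944). Its 2 dimmer probe sets were at 0.16 and 0.26 with groups that overlapped. Cpt2, its partner on the inner membrane, was at 0.23 (95% interval -0.01 to 0.47, adjusted p = 0.203, limma).

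Crat, the carnitine acetyltransferase found in both mitochondria and peroxisomes, swaps short acyl groups between carnitine and coenzyme A. It was at 8.57, 8.61 and 8.45 in Mir137-/- and at 7.51, 7.74 and 7.66 in Mir137+/+. All 3 Mir137-/- arrays lay above every Mir137+/+ array, and Crat rose by 0.91 (SE 0.10, adjusted p = 0.00154, limma), or 1.87-fold. The 2 other Crat probe sets gave 0.53 and 0.50 with groups that were also separate, so the size of the rise depended on the probe set while its direction did not. Crat was called in each of the 20 alternatives, at 0.64 to 1.03, and at 0.89 when the array with muscle transcripts was dropped.

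In the mitochondrial spiral, 1 of 4 acyl-CoA dehydrogenases passed at the adjusted p. These enzymes open each round on chains of decreasing length. Acadl, the long-chain dehydrogenase, was at 11.70, 11.63 and 11.61 in Mir137-/- and at 11.29, 11.31 and 11.26 in Mir137+/+. The Acadl groups were separate, with a difference of 0.36 (SE 0.08, adjusted p = 0.0251, limma), or 1.28-fold, and a dim second probe set was at 1.03. Acadl passed at the adjusted p without Mir137-/- replicate 3 but not without any other single array. Acadvl, the very-long-chain enzyme, was at 0.03 with an interval of -0.16 to 0.22. Acadm and Acads, for medium and short chains, were at 0.13 (interval -0.06 to 0.32) and 0.02 (interval -0.21 to 0.24). Adjusted p was 0.378 to 0.939 for Acadvl, Acadm and Acads in limma.

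Hadha and Hadhb encode the 2 subunits of the mitochondrial trifunctional protein, which carries out the last 3 steps on long chains at the inner membrane. Hadhb, the thiolase subunit, was at 11.61, 11.55 and 11.52 in Mir137-/- and at 11.07, 10.99 and 10.97 in Mir137+/+. The values were tight and the groups separate, and the difference was 0.55 (SE 0.08, adjusted p = 0.00536, limma), or 1.46-fold, just below the fold threshold. The 2 other Hadhb probe sets were at 0.27 and 0.40 with adjusted p = 0.420 and adjusted p = 0.294 over all probe sets (limma). Hadhb passed at the adjusted p whichever single array was left out, but not without both pancreas arrays (adjusted p = 0.0656, limma). With Xist as a term, against Mir137+/+ replicate 1 alone, the Hadhb difference was 0.49. Hadha, the hydratase and long-chain dehydrogenase subunit, was at 10.93, 10.82 and 10.87 in Mir137-/- and at 10.64, 10.49 and 10.51 in Mir137+/+. Its groups were separate as well, with a difference of 0.33 (SE 0.09, adjusted p = 0.0467, limma), or 1.25-fold. Hadha did not pass whichever single array was left out (0.30 to 0.37).

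The stretch between these genes is shown because Hadha and Hadhb lie head to head on chromosome 5, with 272 bases between them, and were both higher. In RefSeq, Hadha runs on the minus strand and Hadhb on the plus strand. The sequence spans chr5:30154971-30155262 (GRCm38.p6, plus strand), with the first 10 transcribed bases of each gene in capitals, Hadha on the left, read on the opposite strand, and Hadhb on the right. Neither AGGTCA nor the repeat was found in the promoter window of either gene, which says only that these letters are not there.
Hadha-Hadhb: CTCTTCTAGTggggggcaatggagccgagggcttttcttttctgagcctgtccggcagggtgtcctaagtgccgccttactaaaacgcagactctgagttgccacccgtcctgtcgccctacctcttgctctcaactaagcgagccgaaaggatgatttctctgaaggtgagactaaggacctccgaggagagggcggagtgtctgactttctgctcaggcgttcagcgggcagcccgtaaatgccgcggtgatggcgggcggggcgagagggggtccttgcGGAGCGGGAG

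The remaining mitochondrial enzymes act on shorter chains and on double bonds. Echs1, the hydratase of short chains, was at 10.93, 11 and 10.92 in Mir137-/- and at 11.18, 11.10 and 11.21 in Mir137+/+. All 3 Mir137-/- arrays were lower, by 0.21 on average, but the difference missed the threshold (SE 0.08, adjusted p = 0.139, limma) and passed it with a trended, robust variance (adjusted p = 0.0317). Hadh, the dehydrogenase of medium and short chains, was at 0.10 (interval -0.08 to 0.28), and its second bright probe set was at 0.20. Acaa2, the mitochondrial thiolase, was at -0.07 (interval -0.26 to 0.12), and its 3 probe sets lay between -0.07 and 0.01. Of the auxiliary enzymes that deal with double bonds, the enoyl-CoA isomerase Eci1 was at 0.17 and the dienoyl-CoA reductase Decr1 at 0.10, and a second Decr1 probe set was at 0.37 with separate groups (adjusted p = 0.0396 over all probe sets, limma). Over the 16 members placed in mitochondria alone, 0 were called, 3 were higher at the adjusted p and 5 were higher and 1 lower at an unadjusted p below 0.05 (limma), beside 12.2% and 14.6% of all genes at that p. Their median was 0.12 with a range of -0.21 to 0.55.

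Etfa and Etfb form the electron transfer flavoprotein, and lay at -0.04 (interval -0.24 to 0.16) and -0.14 (interval -0.32 to 0.05). Etfdh, the dehydrogenase that passes the electrons to ubiquinone, was at 11.43, 11.46 and 11.57 in Mir137-/- and 11.31, 11.24 and 11.23 in Mir137+/+. It was higher on every Mir137-/- array, by 0.23, with adjusted p = 0.128 (limma), and passed at the adjusted p with a trended, robust variance (adjusted p = 0.0246).

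**Figure D2:**
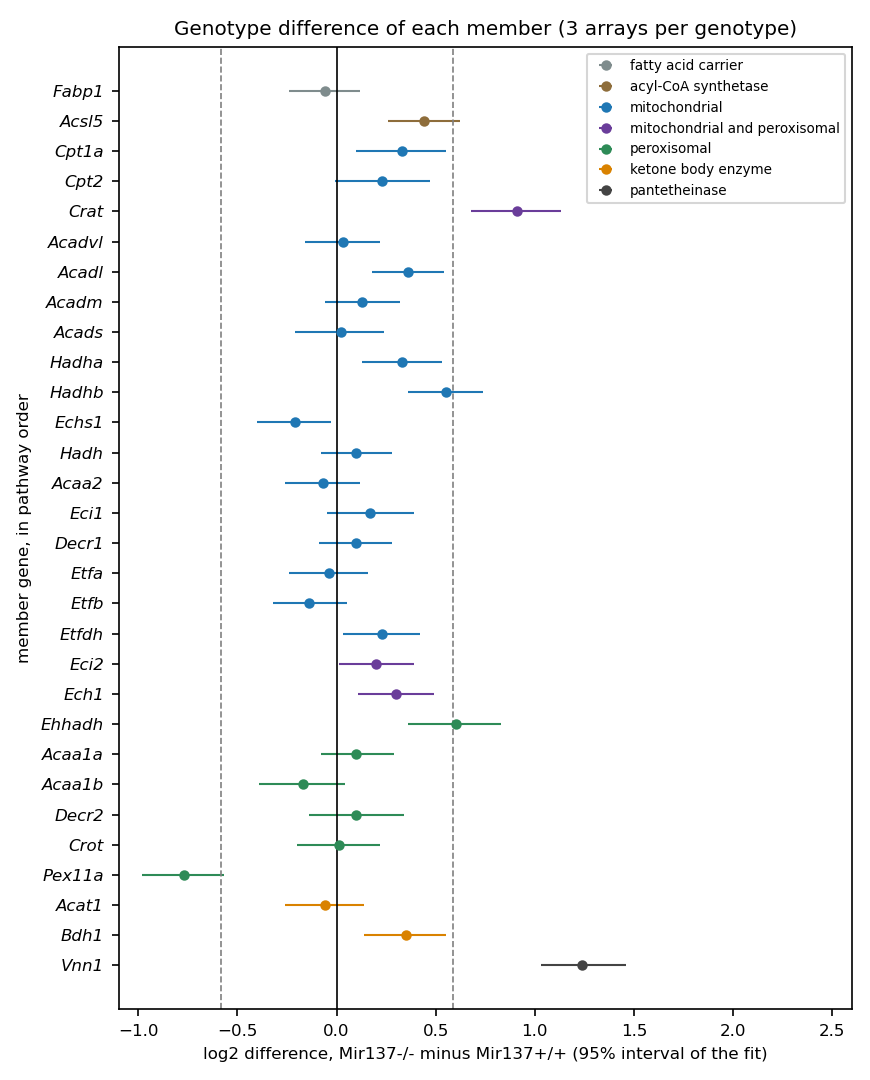
Points give the log2 difference of each member, Mir137-/- minus Mir137+/+, with the 95% interval of the limma fit, in pathway order and coloured by compartment, and dashed lines mark 1.5-fold. Vnn1 (1.24), Crat (0.91), Ehhadh (0.60) and Pex11a (-0.77) lie beyond a dashed line, and Hadhb (0.55) lies just inside.

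Ech1 and Eci2 are auxiliary enzymes that occur in both organelles. Ech1, a dienoyl-CoA isomerase, was at 11.54, 11.52 and 11.45 in Mir137-/- and at 11.22, 11.15 and 11.24 in Mir137+/+, a difference of 0.30 next to the threshold (adjusted p = 0.0504, limma). Over the alternatives its adjusted p lay on both sides of 0.05 (limma). It was 0.00424 with a trended, robust variance, 0.0423 with quantile normalization and 0.0654 to 0.156 with 1 array left out. Eci2, an enoyl-CoA isomerase, was at 0.20 (interval 0.01 to 0.39, adjusted p = 0.169, limma, and adjusted p = 0.0445 with a trended, robust variance). With Crat, the 3 members of both organelles had positive differences and groups that did not overlap, beside 14.9% of all genes with Mir137-/- higher and no overlap. Their median was 0.30.

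Peroxisomal members diverged. Ehhadh, the bifunctional enzyme of peroxisomal oxidation and a classical target of PPARA, was at 11.14, 11.33 and 11.40 in Mir137-/- and at 10.72, 10.78 and 10.58 in Mir137+/+. The groups were separate, and Ehhadh rose by 0.60 (SE 0.10, adjusted p = 0.0102, limma), or 1.51-fold. This value sat at the fold threshold, and the call was lost when Mir137-/- replicate 2 (0.58) or 3 (0.54), or Mir137+/+ replicate 3 (0.54), was dropped. It was also lost with median centring or array weights (0.58 each). At the adjusted p, it was lost with the methods' t-test (adjusted p = 0.0572) and without the pancreas arrays (adjusted p = 0.0779, limma). With Xist as a term, against Mir137+/+ replicate 1 alone, the Ehhadh difference was 0.57. Over the 20 alternatives the difference itself stayed between 0.54 and 0.67.

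The other peroxisomal enzymes did not pass the test. Acaa1a and Acaa1b are near-identical thiolases, and the 2 probe sets annotated to both genes were at -0.08 and -0.17. The probe set of Acaa1b alone was at -0.17 (interval -0.39 to 0.04), with levels of 11.98 to 12.24 in Mir137-/- and 12.27 to 12.30 in Mir137+/+. The brighter one of Acaa1a alone was at 0.10 and the dimmer one at -0.14, so the direction of Acaa1a depended on the probe set, and cross-hybridization between the paralogs cannot be separated here. Decr2, the peroxisomal dienoyl-CoA reductase, was at 0.10 (interval -0.14 to 0.34), and Crot, which makes medium-chain acylcarnitines for export to mitochondria, was at 0.01 (interval -0.20 to 0.22). Adjusted p for Acaa1a, Acaa1b, Decr2 and Crot ran from 0.285 to 0.961 in limma.

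Pex11a went the opposite way to Ehhadh. It encodes a membrane protein that takes part in the elongation and division of peroxisomes and is induced by PPARA ligands in rodent liver. It was at 8.46, 8.53 and 8.41 in Mir137-/- and at 9.16, 9.34 and 9.22 in Mir137+/+. Every Mir137-/- array lay below every Mir137+/+ array, and Pex11a fell by 0.77 on the log2 scale (SE 0.09, adjusted p = 0.00186, limma), to a fold of 0.585. The second probe set gave -0.75, and the call held in each of the 20 alternatives (-0.81 to -0.69). Over the 6 peroxisomal members, 1 rose and 1 fell, with a median of 0.05. This median ran from -0.01 to 0.09 over the alternatives, against 0.10 to 0.15 for the mitochondrial members. The difference between compartments was not tested, since genes are not replicates.

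Of the 2 ketone body enzymes measured, 1 passed at the adjusted p. Bdh1, the dehydrogenase that converts acetoacetate and beta-hydroxybutyrate into each other, was at 12.31, 12.25 and 12.41 in Mir137-/- and at 12.05, 11.99 and 11.89 in Mir137+/+. The groups were separate, with a difference of 0.35 (SE 0.09, adjusted p = 0.0432, limma), or 1.27-fold, and a dimmer probe set gave 0.58. Bdh1 did not pass either with any single array left out (0.30 to 0.38). Acat1, the mitochondrial thiolase that joins acetyl-CoA units, lay at 12.10 to 12.31 in Mir137-/- and 12.25 to 12.28 in Mir137+/+, a difference of -0.06 (interval -0.26 to 0.14). Its dimmest probe set was at 0.21.

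Vnn1 showed the largest difference of the 30 members. It encodes a pantetheinase, which frees pantothenate, the precursor of coenzyme A, and it is a PPARA-responsive gene of mouse liver. It was at 10.16, 9.98 and 10.22 in Mir137-/- and at 8.86, 8.86 and 8.91 in Mir137+/+. The groups were more than 1 log2 unit apart, and Vnn1 rose by 1.24 (SE 0.09, adjusted p = 4.24e-04, limma), or 2.37-fold. Its second probe set gave 1.36, and the call held in each of the 20 alternatives (1.19 to 1.31).

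**Figure D3:**
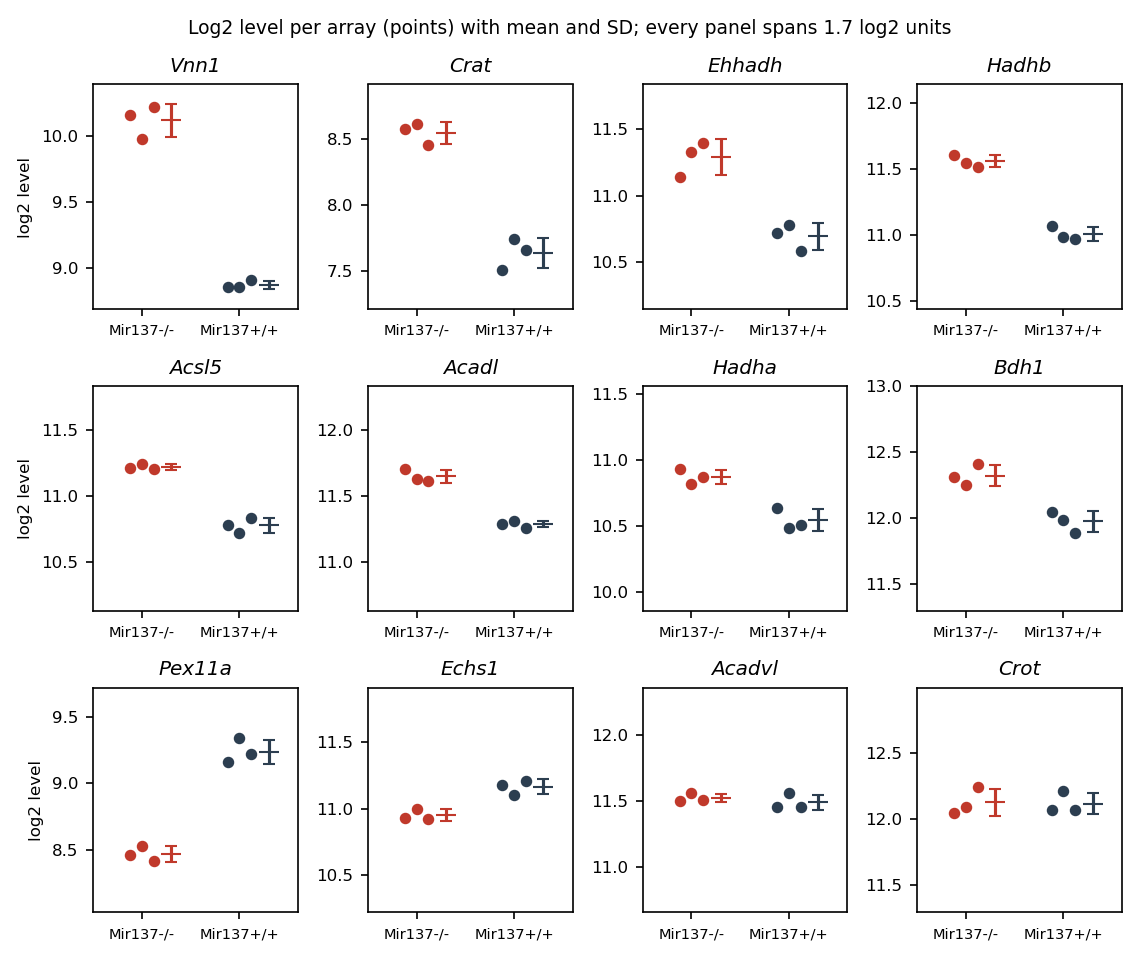
Points give the log2 level of 12 members on each array, with the mean and SD for each genotype (n = 3 arrays), and each panel spans the same range of log2 units. Vnn1, Crat, Ehhadh and Hadhb lie higher in Mir137-/-, Pex11a lies lower, and the Acadvl and Crot groups overlap.

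The members with several probe sets allowed a check within the arrays. For Vnn1, Pex11a, Crat and Bdh1, every probe set of the gene gave the same direction, and for Crat and Bdh1 the sizes differed, at 0.50 to 0.91 and 0.35 to 0.58. The direction was also shared by the probe sets of Fabp1, Cpt1a, Cpt2, Acadl, Hadhb, Decr1, Etfdh and Crot. The second probe sets of Cpt2, Acadl and Etfdh were dim, with genotype means between 3.05 and 4.41 (log2). For Hadh, Acaa2, Acaa1a and Acat1, probe sets of the same gene lay on both sides of 0. When a gene's probe sets were averaged, Acadl was at 0.70 and was called, with its dim probe set given equal weight. In the same setting Hadhb was at 0.41 and no longer passed at the adjusted p.

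**Figure D4:**
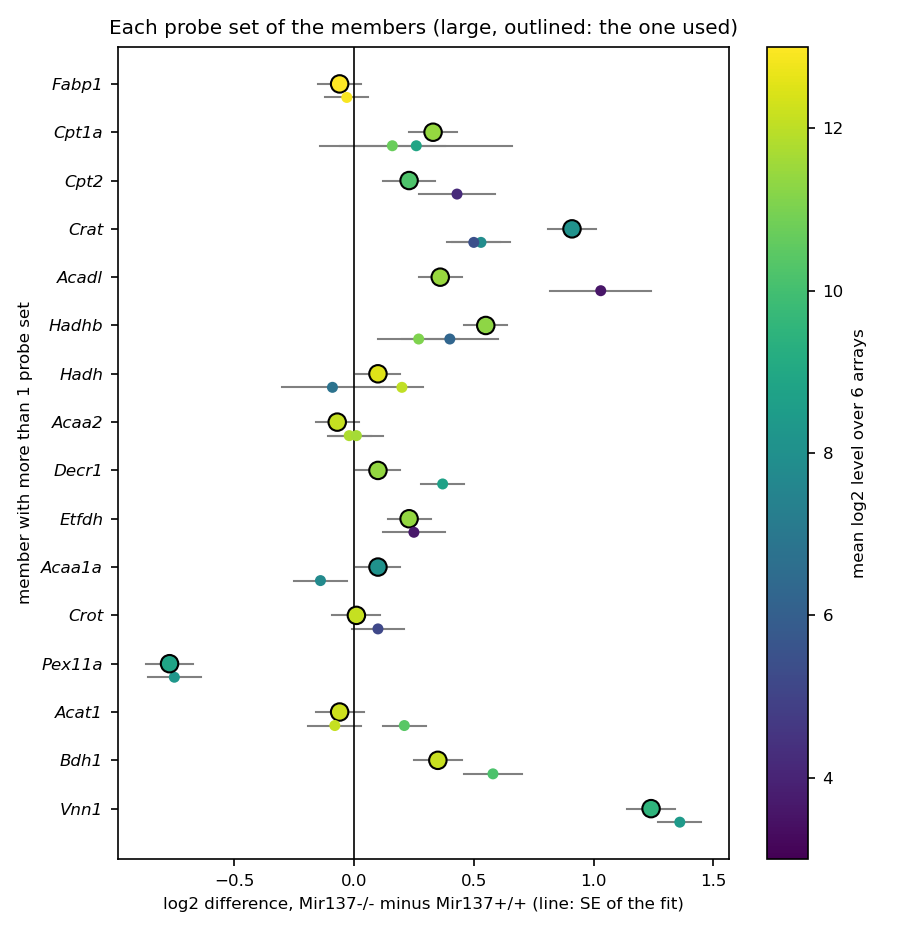
Each point is a probe set of a member that has more than 1, placed at its log2 difference, Mir137-/- minus Mir137+/+, with its SE and coloured by mean log2 level, and the probe set used is large and outlined. The Vnn1 probe sets lie at 1.24 and 1.36 and those of Pex11a at -0.77 and -0.75, while those of Hadh, Acaa2, Acaa1a and Acat1 lie on both sides of 0.

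Other genes of the same and neighbouring pathways were read from lists chosen by role, also with earlier results of these data known. The list headed mitochondrial oxidation also held enzymes of amino acid and propionate breakdown (Acadsb, Acad8, Ivd, Gcdh, Hsd17b10, Pcca, Pccb, Mcee and Mmut). Of 21 further genes listed under mitochondrial oxidation, 0 were called higher and 3 lower, beside 2.34% and 3.34% of all genes. Their median was -0.09. At an unadjusted p below 0.05 there were 2 higher and 8 lower (limma), beside 12.2% and 14.6% of all genes. The 8 included Acadsb, Ivd, Gcdh, Hsd17b10, Pcca and Mcee, so this count does not describe fatty acid oxidation alone. Mlycd stood in this list and in the peroxisomal one. Nudt7, which breaks down coenzyme A and acyl-CoA and is peroxisomal although it stood in this list, fell by 1.16 on the log2 scale, Acadsb, the short/branched-chain dehydrogenase, by 0.82, and Etfrf1, a regulator of the electron transfer flavoprotein, by 0.59. Slc25a20, the carrier that brings acylcarnitines across the inner membrane, was at -0.11 (adjusted p = 0.498, limma). Without the probe sets that can match several transcripts, 16 of these genes were left and 0 were called lower.

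Of 26 further peroxisomal enzymes and carriers, 0 were called higher and 4 lower, beside 2.34% and 3.34% of all genes. Their median was -0.17. At an unadjusted p below 0.05 there were 3 higher and 11 lower (limma), beside 12.2% and 14.6% of all genes. Acnat2, an acyl-CoA amino acid conjugating enzyme, fell by 1.87 on the log2 scale, Pecr, a trans-enoyl-CoA reductase, by 0.88, Hao2, a hydroxy acid oxidase, by 0.77 and Baat, which conjugates bile acids, by 0.66. Hsd17b4, the other bifunctional enzyme of peroxisomes, was at 0.19 (adjusted p = 0.170) and the importer Abcd3 at -0.27 (adjusted p = 0.0783, limma). The lower count was 2 without Mir137+/+ replicate 1 or 3. Of 12 measured peroxins, which build the organelle, 0 were called in either direction by limma, and the median was -0.11. At an unadjusted p below 0.05, 1 was higher and 4 were lower (limma), beside 12.2% and 14.6% of all genes. At the adjusted p alone, 2 of the peroxins, Pex10 (-0.50) and Pex26 (-0.43), were lower, beside 6.9% of all genes.

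Among 6 further ketone body genes, 0 were called higher and 4 lower, beside 2.34% and 3.34% of all genes. Their median was -0.62. At an unadjusted p below 0.05, 1 was higher and 4 were lower (limma), beside 12.2% and 14.6% of all genes. The methods' t-test, unadjusted and with the same fold threshold, also called 0 higher in these 4 lists. Aacs, which uses acetoacetate for lipid synthesis, fell by 1.40 on the log2 scale, Oxct1, which lets tissues other than liver burn ketone bodies, fell by 1.10, Slc16a6, a carrier that exports ketone bodies in zebrafish liver, fell by 0.62 and Bdh2, a second dehydrogenase named for hydroxybutyrate, fell by 0.62. Oxct1 lay at 5.61 to 5.94 in Mir137-/- and 6.81 to 7.04 in Mir137+/+. The summed blood cell markers were lower in Mir137-/- as well, and their part in these differences was not tested.

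Of 19 genes of uptake and activation, 3 were called higher and 1 lower, beside 2.34% and 3.34% of all genes. At an unadjusted p below 0.05, 7 were higher and 6 were lower (limma), beside 12.2% and 14.6% of all genes. Slc22a5, the carnitine importer, rose by 0.68 on the log2 scale, Cd36, a fatty acid carrier, by 0.63 and Acsl3, an acyl-CoA synthetase, by 0.81, and Acsm5, a medium-chain acyl-CoA synthetase, fell by 0.64. The higher count was 1 without Mir137-/- replicate 2, without Mir137+/+ replicate 2 or without both. The lower count was 0 without any 1 array other than Mir137+/+ replicate 3. Of 16 genes of PPARA, its partners and omega oxidation, 4 were called higher and 2 lower, beside 2.34% and 3.34% of all genes. Their median was -0.14. At an unadjusted p below 0.05, 6 were higher and 5 were lower (limma), beside 12.2% and 14.6% of all genes. Pdk4, the kinase that blocks pyruvate oxidation, rose by 2.02 and the fatty aldehyde dehydrogenase Aldh3a2 by 0.63, while Lpin1, a lipin that coactivates PPARA, fell by 0.94 and the bile acid receptor Nr1h4 by 0.78. Plin2 and Cyp4a14 were called higher as well. Ppara itself was at 10.32, 10.11 and 10.31 in Mir137-/- and at 10.48, 10.48 and 10.44 in Mir137+/+, a difference of -0.22 (adjusted p = 0.167, limma). The higher count of this list was 2 without Mir137+/+ replicate 1 or 3, or without the pancreas arrays.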

How the data were processed

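RNA of whole liver was hybridized to whole-genome mouse GeneChip arrays of Affymetrix by the authors, who deposited 1 table of log2 values per probe set, made by GCRMA per the labels and by RMA with centring to the mean per the methods. The deposited log2 values were not centred (1.22 to 13.79, array medians 4.88 to 4.91). The labels and methods also differ in the RNA amount and labelling cycles. Of 45101 probe sets, 64 controls were left out. Platform annotation, updated through Entrez identifiers, gave 34945 probe sets with 1 symbol, 932 with several and 9160 with none. The brightest single-symbol probe set over the 6 arrays represented each of 18193 genes.

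Genotypes were compared with limma 3.58.1 in R 4.3.3 (2 group means, eBayes, Benjamini-Hochberg over all genes). Calls required an adjusted p below 0.05 and over 1.5-fold. The script was tested on simulated data. With 3 arrays per genotype, the number of arrays limits the precision. The p-values set each difference against the spread between arrays, which eBayes moderates with the spread of all genes. An exact permutation of 3 against 3 cannot give a two-sided p below 0.1, so none was used.

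Members and lists were chosen with earlier results of these data known. All members are named, and of each other list up to 4 called genes with the smallest p, further called ones by name and a few key enzymes and carriers. Alternatives were a t-test as in the methods, a trended and robust variance, quantile normalization, median centring, array weights, no dim genes, other probe set rules, a replicate block, each array left out, both arrays with pancreas transcripts left out, and Xist as a term. Where no promoter window or sequence was held, none is shown. Motifs were searched in RefSeq promoter windows (GRCm38.p6).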

Additional observations from a re-analysis of the deposited data

How the results depend on the processing

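Pex11a, Vnn1 and Crat kept their calls under all 20 alternatives, and Ehhadh under 12. In 1 of the 20, with Xist as a term, the difference rests on Mir137+/+ replicate 1 alone. Members called higher were 3, and 2 to 3 with 1 array left out, and without the fold threshold 8. Members lower were 1 throughout. Members higher at the adjusted p at any fold were 8. They were 15 with the methods' t-test unadjusted, 12 with a trended, robust variance and 10 without the dimmest 40% of genes. They were 2 without the arrays with pancreas transcripts, and 4 to 6 with 1 array left out, where 5 arrays are fitted. Members lower were 3 with the unadjusted t-test and 2 with a trended, robust variance.

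The labels do not say whether replicate numbers pair the arrays. Correlations of deviations were 0.08, 0.21 and 0.00, and 4 of 6 arrays correlated best with their own number, which does not settle it. With the replicate number as a block, 5 members were higher at the adjusted p.

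Over all genes, 425 were called higher and 607 lower. The counts were 182 and 284 with the methods' t-test adjusted, 921 and 1256 without the fold threshold, 228 and 390 without the pancreas arrays, 184 and 259 with Xist as a term, and 343 to 493 and 470 to 645 with 1 array left out.

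Of the other lists, the one headed mitochondrial, with Nudt7 in it, had 1 higher without the fold threshold and 0 lower without probe sets that can match several transcripts. Peroxisomal genes had 0 to 1 higher (1 without Mir137-/- replicate 2) and 2 to 4 lower with 1 array left out, and 2 lower with the t-test adjusted. Peroxins had 2 lower without the fold threshold, and ketone body genes 2 lower with the t-test adjusted. Uptake and activation had 0 higher with the t-test adjusted, 5 without the fold threshold, 1 without the pancreas arrays and 1 to 3 with 1 array left out. The lower counts were 0, 3, 0 and 0 to 1 in the same settings, in that order. The PPARA list had 2 higher with the t-test adjusted, 2 higher and 1 lower without the pancreas arrays, and 2 to 5 higher with 1 array left out.

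The median of members of both organelles was 0.60 without multi-transcript probe sets (2 genes left) and 0.26 without the pancreas arrays, and that of ketone body members 0.24 with the mean of all probe sets. Differences near 0 changed sign. With 1 array left out Acads ran from -0.05 to 0.07 and Crot from -0.05 to 0.06. Acads was at -0.05 without Mir137-/- replicate 2, -0.02 without Mir137+/+ replicate 3, -0.06 without the pancreas arrays and -0.07 with Xist. Crot was at -0.03 with quantile normalization, -0.05 without Mir137-/- replicate 3 and -0.01 without Mir137+/+ replicate 1 or 3. Decr2 was at -0.02 with Xist, and with the mean of all probe sets Acaa1a was at -0.02 and Acat1 at 0.02. The cause of these changes was not tested. The small number of arrays limits what can be seen of differences as small as those of most members.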
